A study of Mus musculus with 32 samples.

Results

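The 10 genes described here, Kdr, Egfl7, Flt1, Tek, Tie1, Cdh5, Pecam1, Eng, Cldn5 and Emcn, are commonly used markers of endothelial cells. They were taken by symbol from a table of RNA polymerase II (Pol II) occupancy over 27179 mouse genes. All 10 were present and passed the filter on low values. These genes, called members here, and the gene lists below were chosen with earlier results of these data known.

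Endothelial cells line every blood vessel. Vascular endothelial growth factor (VEGF) acts through receptor tyrosine kinases on their surface, and angiopoietins act through another receptor family, the Tie receptors. Neighbouring cells are held together by cadherin and claudin junctions. The cells differ between organs: capillaries of the brain form a barrier, those of the heart pass fatty acids to muscle, sinusoids of the liver are fenestrated, and the kidney holds glomerular and peritubular beds.

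Brain, heart, kidney and liver of mice were kept either as formalin-fixed, paraffin-embedded (FFPE) tissue or as flash-frozen tissue. FFPE tissue was fixed in 10% formalin, and its chromatin was extracted by heating to 95 °C for 20 min. Cores of frozen tissue were crosslinked in 1% formaldehyde for 30 min, so preservation and extraction changed together. Chromatin was sheared and immunoprecipitated by an antibody to the Pol II C-terminal domain (chromatin immunoprecipitation sequencing, ChIP-seq), or kept as input. The 32 libraries form 16 groups of 2, of which 8 groups are Pol II. The sources used here give no strain, age or sex. The table has 1 column for each organ and preservation, called a profile here. The sources used here do not say whether a profile is 1 library of its group or both. Each organ thus has 2 profiles, FFPE and frozen. Nothing says that profiles come from separate animals, so p-values measure only the spread between them.

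Values are log2 of reads per 1000000 reads of a scaled library total, after 0.5 reads were added. A higher value means more immunoprecipitated DNA over the gene relative to all genes of that profile. Profiles held between 864816 reads in genes (FFPE liver) and 2178329 (frozen liver). Mitochondrial genes took 25.6% of the reads of FFPE heart and 19.2% of FFPE kidney, against 12.0% in frozen heart and 7.77% in frozen kidney. Markers of the main cell type of each organ stood where the labels place them: 10 of 10 cardiomyocyte genes were called higher in heart, 10 of 10 hepatocyte genes in liver, 10 of 10 neuron genes in brain and 9 of 10 tubule genes in kidney. All genes called higher made up 3.06% in heart, 4.52% in liver, 3.43% in brain and 0.919% in kidney. The members had between 11 reads (Cldn5, FFPE liver) and 468 reads (Kdr, frozen heart), so counting error is widest for Cldn5 and Emcn. Markers of other organs held reads too: in FFPE and frozen brain, Myh6 had 121 and 80 and Alb 31 and 29. Input was not analysed here, so how much of a level is background was not tested. Flt1, Tek and Emcn are the longest members (164835, 135891 and 90008 bases), and the effect of gene length on the folds was not tested.

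Promoter sequence is shown for 3 members because Egfl7 and Eng had the largest deficits in brain and Tie1 was among the genes higher in heart. The windows are the 250 bases before an annotated transcript start, from RefSeq on GRCm38.p6 (mm10), printed 5′ to 3′ on the gene's strand. Capitals mark CAGGAA or CCGGAA, on either strand, hexamers that many ETS transcription factors bind. Other forms of ETS site were not counted and are not marked.
Egfl7, chr2:26580833-26581082, plus strand: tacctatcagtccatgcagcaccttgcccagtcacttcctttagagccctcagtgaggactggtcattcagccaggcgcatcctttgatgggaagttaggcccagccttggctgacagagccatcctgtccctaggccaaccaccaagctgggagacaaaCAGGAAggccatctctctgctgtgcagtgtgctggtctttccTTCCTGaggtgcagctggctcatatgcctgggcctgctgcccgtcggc
Tie1, chr4:118489850-118490099, minus strand: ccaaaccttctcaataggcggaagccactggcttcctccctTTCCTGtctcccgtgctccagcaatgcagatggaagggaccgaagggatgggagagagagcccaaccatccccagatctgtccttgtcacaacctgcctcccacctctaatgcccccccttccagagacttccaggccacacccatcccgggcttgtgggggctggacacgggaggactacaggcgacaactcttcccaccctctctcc
Eng, chr2:32646345-32646594, plus strand: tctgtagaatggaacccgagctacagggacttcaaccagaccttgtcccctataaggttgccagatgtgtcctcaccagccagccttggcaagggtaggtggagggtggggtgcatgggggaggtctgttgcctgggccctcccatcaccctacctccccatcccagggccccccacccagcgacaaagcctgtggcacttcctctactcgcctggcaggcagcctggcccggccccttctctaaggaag
Egfl7 has 3 windows, of which the one printed lies just before the start of the annotated gene. This Egfl7 window held 2 copies of CAGGAA, the others 1 and 0, and the Tie1 window 1 copy. In the Eng window neither hexamer occurred, which does not speak to other forms of ETS site. RefSeq windows were at hand for 8 of the 10 members, 10 windows in all. Either hexamer occurred in 6 of these 10 windows, which belong to 5 genes since 2 are of Egfl7. Among 32851 mouse windows of the same length, 35.1% held either hexamer. By letters, CAGGAA was in 5 member windows (25.7% of all windows) and CCGGAA in 1, that of Kdr (12.0%). AGATAA, which is only a single form of GATA site, was in none (9.99%), and other forms were not counted. The GC box GGGCGG was in 4 (32.7%) and TATAAA in 1, that of Flt1 (12.4%). All were counted on either strand. These matches describe the letters of the windows and show no binding.

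Egfl7 also carries a microRNA gene, Mir126a, inside its body. The mature strand miR-126a-3p, an endothelial microRNA, lies at chr2:26591402-26591423 on the plus strand, and its seed (bases 2 to 8) is in capitals because the table gives the host and the microRNA gene separate rows.
mmu-miR-126a-3p: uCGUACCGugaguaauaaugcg

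Pol II over the endothelial genes was highest in heart. Heart was compared with the mean of the other organs, 2 profiles against 6, in a linear model with organ and preservation as terms. Of the 10 members, 6 were called higher in heart and 0 lower (limma, Benjamini-Hochberg adjusted p under 0.05 over 26758 genes), against 3.06% of all genes called higher and 2.18% called lower. The members' median log2 fold was 1.27, and that of all genes was -0.00. Summed over the 10 genes, reads per 1000000 of scaled total were 994 in FFPE heart and 1239 in frozen heart, against 635 and 659 in FFPE and frozen kidney, 437 and 525 in FFPE and frozen liver, and 310 and 280 in FFPE and frozen brain. In whole tissue, a larger share of endothelial cells and more Pol II on these genes in each cell cannot be told apart.

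**Figure D1:**
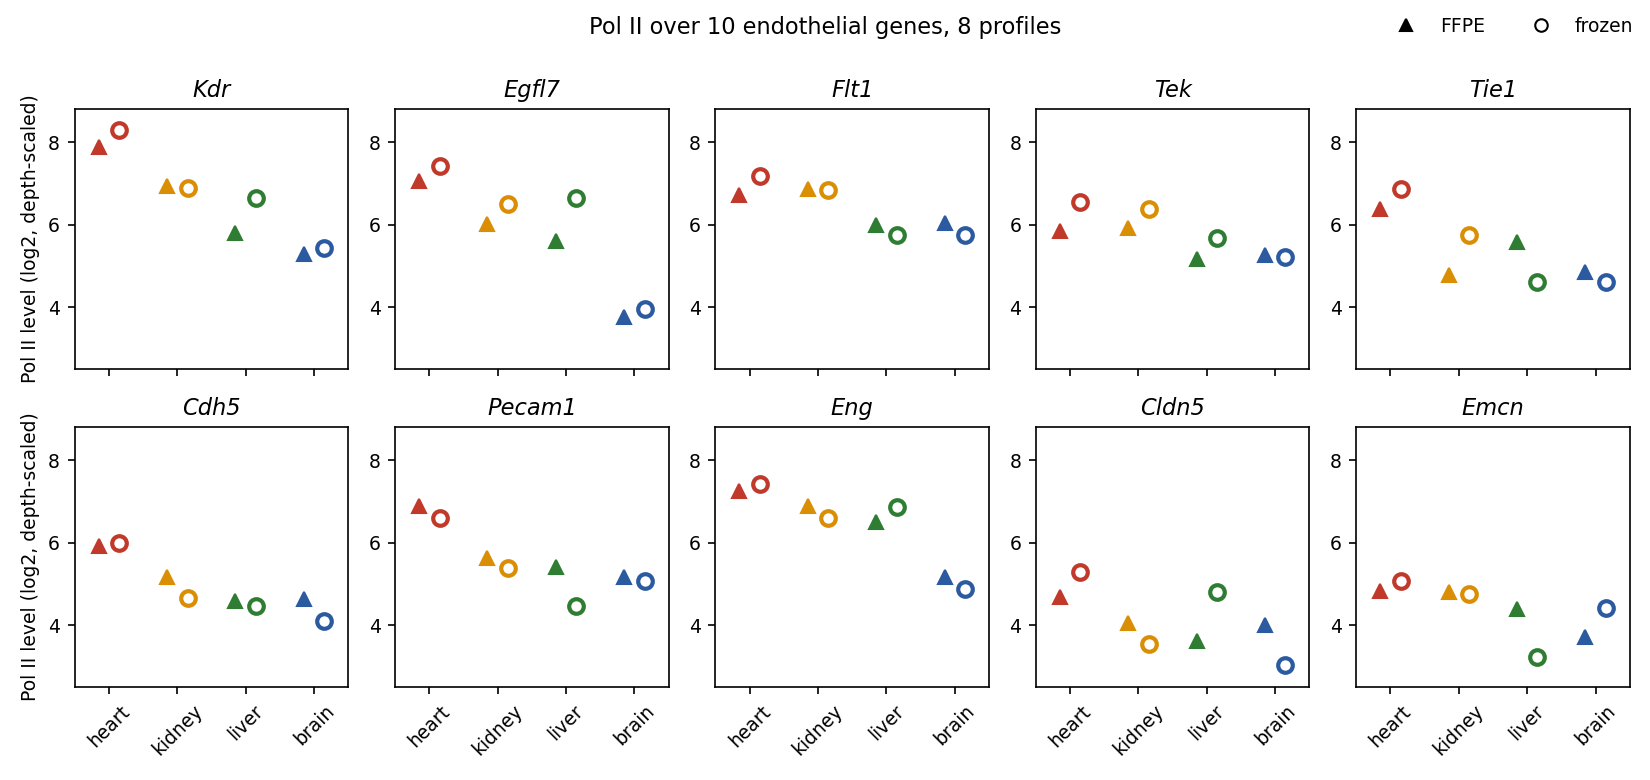
Pol II level (log2, scaled to depth) of the 10 endothelial genes in heart, kidney, liver and brain. A triangle is the FFPE profile and an open circle the frozen profile of an organ. Both heart profiles lie above all 6 others in 7 of the 10 panels, and both brain profiles lie below all 6 others for Kdr, Egfl7 and Eng.

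Of the 2 VEGF receptors, Kdr was called higher in heart and Flt1 was not. Kdr (VEGF receptor 2, chr5:75932827-75979072) is the main signalling receptor for VEGF-A. Its log2 levels were 7.89 in FFPE heart and 8.30 in frozen heart, against 6.93 and 6.88 in FFPE and frozen kidney, 5.79 and 6.65 in liver, and 5.29 and 5.42 in brain. Both heart profiles lay above all others, and Kdr was 3.81-fold higher in heart than the mean of the other organs (log2 fold 1.93 ± 0.23 SE, limma adjusted p = 1.3e-05). Flt1 (VEGF receptor 1, chr5:147561604-147726438) binds the same ligand and, as a soluble form, restrains it. Its levels were 6.71 in FFPE heart and 7.18 in frozen heart, against 6.86 and 6.83 in FFPE and frozen kidney, 6.0 and 5.74 in liver, and 6.05 and 5.74 in brain. FFPE heart was level with kidney for Flt1, the groups overlapped, and the fold of 0.74 ± 0.23 did not pass (limma adjusted p = 0.066).

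Of the Tie receptors, Tie1 was called higher in heart and Tek was not. Tie1 (chr4:118471191-118489849) has no angiopoietin that it binds with high affinity and modulates signalling through Tek. Its levels were 6.38 in FFPE heart and 6.86 in frozen heart, against 4.77 and 5.74 in FFPE and frozen kidney, 5.58 and 4.60 in liver, and 4.85 and 4.62 in brain. The heart profiles lay above all others, with a log2 fold of 1.60 ± 0.31 (limma adjusted p = 0.0029). Tek (Tie2, chr4:94739086-94874976) is the receptor of the angiopoietins. Its levels were 5.84 and 6.55 in FFPE and frozen heart, against 5.92 and 6.39 in FFPE and frozen kidney, 5.17 and 5.67 in liver, and 5.27 and 5.22 in brain. Heart and kidney overlapped for Tek, and the heart fold of 0.59 ± 0.25 did not pass (limma adjusted p = 0.21).

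Eng (endoglin, chr2:32646595-32682669) is a coreceptor for ligands of the TGF-beta and BMP families. Its levels were 7.24 in FFPE heart and 7.41 in frozen heart, against 6.89 and 6.59 in FFPE and frozen kidney, 6.50 and 6.86 in liver, and 5.18 and 4.87 in brain. Heart stood above the rest by a log2 fold of 1.18 ± 0.23 (limma adjusted p = 0.0026), although kidney and liver lay closer to heart than to brain.

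Of the junction and adhesion genes, those of the adherens junction and the lateral border were higher in heart. Cdh5 (VE-cadherin, chr8:104101613-104144504) forms endothelial adherens junctions. Its levels were 5.93 and 6.0 in FFPE and frozen heart, against 5.16 and 4.66 in FFPE and frozen kidney, 4.59 and 4.47 in liver, and 4.64 and 4.10 in brain. The 2 heart profiles lay close together and above all others (log2 fold 1.36 ± 0.30, limma adjusted p = 0.0076). Pecam1 (CD31, chr11:106654213-106715281) is an adhesion molecule at endothelial cell borders that platelets and leukocytes also carry. Its levels were 6.89 and 6.59 in FFPE and frozen heart, against 5.62 and 5.37 in FFPE and frozen kidney, 5.41 and 4.47 in liver, and 5.18 and 5.06 in brain. Heart did not overlap any other organ (log2 fold 1.55 ± 0.26, limma adjusted p = 0.00069). Cldn5 (claudin-5, chr16:18776847-18778262) is a tight-junction protein best known for sealing brain capillaries. Its levels were 4.69 and 5.29 in FFPE and frozen heart, against 4.06 and 3.55 in FFPE and frozen kidney, 3.62 and 4.81 in liver, and 4.00 and 3.03 in brain. Frozen liver lay between the heart profiles, and neither brain profile of this barrier gene stood above the other organs. With 20 and 58 reads in FFPE and frozen heart, against 32 and 15 in FFPE and frozen brain, the heart fold of 1.14 ± 0.44 did not pass (limma adjusted p = 0.15).

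The last pair is a secreted factor and a surface sialomucin. Egfl7 (chr2:26581083-26592682) encodes a matrix-bound protein that endothelial cells secrete. Its levels were 7.06 and 7.41 in FFPE and frozen heart, against 6.0 and 6.50 in FFPE and frozen kidney, 5.61 and 6.66 in liver, and 3.76 and 3.96 in brain. The heart profiles lay above all others (log2 fold 1.82 ± 0.25, limma adjusted p = 6.2e-05), and both brain profiles lay far below kidney and liver. Emcn (endomucin, chr3:137341062-137431069) coats the surface of capillary and venous endothelium. Its levels were 4.82 and 5.08 in FFPE and frozen heart, against 4.81 and 4.75 in FFPE and frozen kidney, 4.39 and 3.22 in liver, and 3.71 and 4.42 in brain. Both heart profiles were above all others, by a narrow margin over FFPE kidney, and the fold of 0.74 ± 0.39 did not pass (limma adjusted p = 0.33).

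Both heart profiles lay above the 6 others in 7 of the 10 members (Kdr, Egfl7, Tie1, Cdh5, Pecam1, Eng and Emcn), against 7.66% of all genes. Within FFPE tissue heart was the highest organ for 8 members and kidney for Flt1 and Tek. Within frozen tissue heart was the highest for 10. Shares of all genes were not computed for these ranks. The members' median log2 difference from the mean of the other organs was 1.09 among FFPE profiles and 1.55 among frozen ones. The calls for Kdr and Egfl7 held in all 16 alternative settings and left-out profiles. The count of 6 was 3 without FFPE heart and 2 without frozen heart, where 1 heart profile is assumed to vary like the rest, and 8 without frozen liver.

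**Figure D2:**
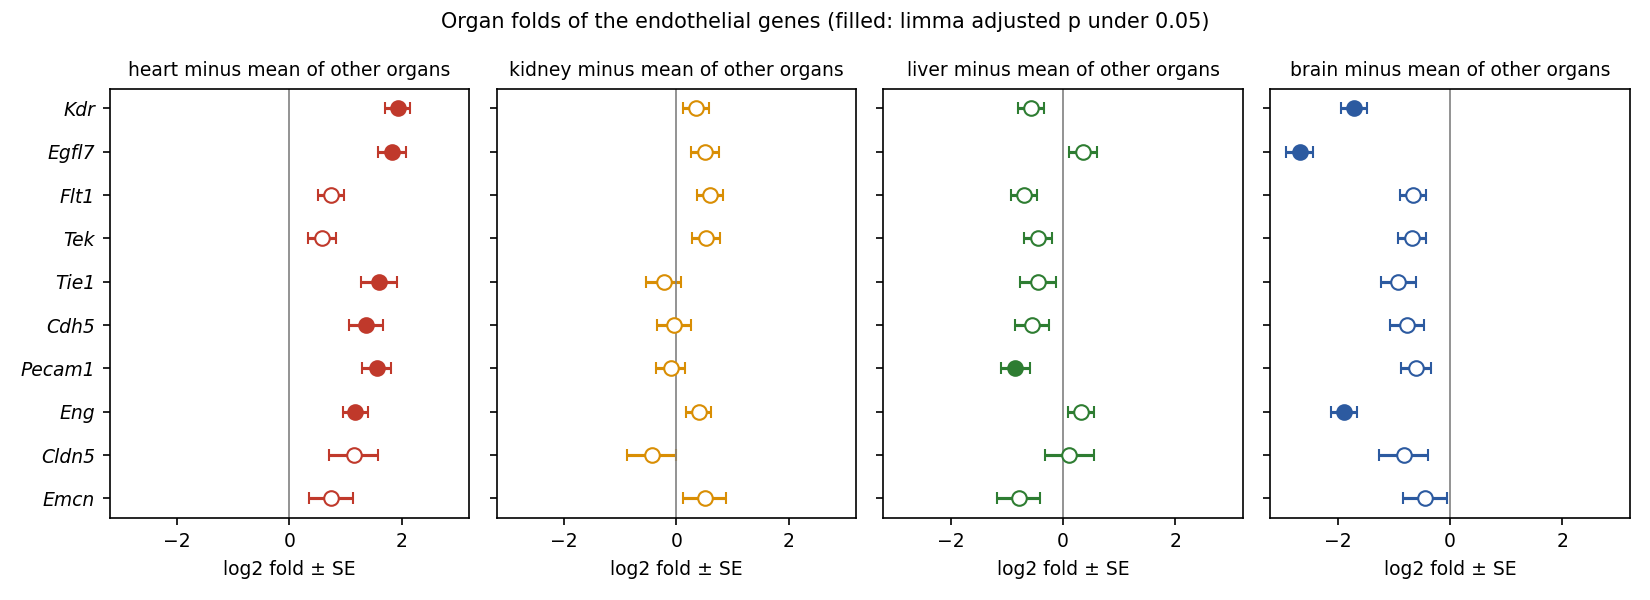
Log2 fold of each endothelial gene in 1 organ against the mean of the other organs, with its standard error, for heart, kidney, liver and brain. Filled points passed limma's adjusted p under 0.05: 6 in heart, none in kidney, Pecam1 in liver, and Kdr, Egfl7 and Eng in brain.

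In brain the endothelial genes were low, but the deficit was concentrated in Egfl7, Eng and Kdr. Against the mean of the other organs, 3 members were called lower and 0 higher (limma, adjusted p under 0.05), against 4.02% of all genes called lower and 3.43% higher. Egfl7 was 6.41-fold lower in brain (log2 fold -2.68 ± 0.25, limma adjusted p = 7.2e-07), with 27 and 29 reads in FFPE and frozen brain. The median gene had 38 and 37 reads there. Eng differed by -1.89 ± 0.23 (limma adjusted p = 1.3e-05) and Kdr by -1.71 ± 0.23 (limma adjusted p = 3.8e-05). For these 3 genes both brain profiles lay below all 6 others, which holds for 7.05% of all genes.

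The other 7 members had log2 folds between -0.92 and -0.45 in brain and did not pass. All 10 folds were below 0, with a median of -0.79 against 0.01 for all genes. Heart is part of the comparison group for brain, so heart's high values lower these folds. Set against single organs, kidney exceeded brain for Egfl7 (2.39 ± 0.30), Eng (1.72 ± 0.28) and Kdr (1.55 ± 0.28), 3 members higher and 0 lower, against 1.92% and 1.86% of all genes. Liver exceeded brain for Egfl7 (2.27 ± 0.30) and Eng (1.65 ± 0.28), 2 members higher and 0 lower, against 5.35% and 3.97% of all genes. The 3 calls in brain against the mean of the other organs held in all 16 alternatives, with 6 calls without frozen liver. The kidney minus brain calls of Kdr and Eng were lost without frozen brain, and without FFPE kidney, where Egfl7 was still called.

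Heart minus brain held the largest single fold of the organ pairs, that of Egfl7. Heart was higher for 7 members (limma, adjusted p under 0.05), and 0 members were lower, against 3.88% of all genes higher and 2.78% lower. Egfl7 was 10.4-fold higher in heart than in brain (log2 fold 3.38 ± 0.30), Kdr 6.65-fold (2.73 ± 0.28) and Eng 4.93-fold (2.30 ± 0.28). Tie1 (1.89 ± 0.39), Pecam1 (1.62 ± 0.32), Cdh5 (1.60 ± 0.37) and Flt1 (1.05 ± 0.28) followed, whereas Tek, Cldn5 and Emcn did not pass. Leaving out 1 profile gave between 3 and 9 calls: 4 without FFPE brain, frozen brain or FFPE heart, and 3 without frozen heart.

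By summed level kidney and liver lay between heart and brain, though not for every member, and few members told them apart from the rest. In kidney 0 members were called in either direction (limma without and with voom weights), against 0.919% of all genes called higher and 0.456% lower; 2 had an unadjusted p under 0.05, Flt1 (log2 fold 0.61 ± 0.23) and Tek (0.54 ± 0.25). In liver Pecam1 alone was called, lower by a log2 fold of -0.85 ± 0.26 (limma adjusted p = 0.047), against 3.39% of all genes called lower and 4.52% higher. That call was lost in 9 of 16 alternatives, without any 1 of the brain, heart and kidney profiles and without frozen liver among them.

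Heart exceeded kidney for Kdr (1.18 ± 0.28) and Pecam1 (1.24 ± 0.32), with 0 members lower, against 1.42% of all genes called higher and 1.25% lower. Without FFPE heart, frozen heart, FFPE kidney or frozen kidney neither call held. Heart exceeded liver for 6 members and fell below it for 0, against 3.42% of all genes called higher and 3.65% lower: Kdr (1.87 ± 0.28), Pecam1 (1.80 ± 0.32), Tie1 (1.54 ± 0.39), Cdh5 (1.44 ± 0.37), Egfl7 (1.10 ± 0.30) and Flt1 (1.07 ± 0.28). Leaving out 1 profile gave 2 to 6 of them, and Kdr and Pecam1 were called each time. Kidney minus liver gave 0 calls, with all genes at 1.43% higher and 2.34% lower.

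Ordered by mean level, heart came first for all 10 members and brain last for 7, while liver came last for Flt1, Pecam1 and Emcn. How often all genes have such an order was not computed. Most neighbouring steps in these orders were within error. The step between heart and the next organ passed for Kdr and Pecam1, and the step between brain and the next organ passed for Egfl7 and Eng, whose kidney and liver means differed by 0.12 for Egfl7 and 0.06 for Eng. For Tek, Flt1, Tie1, Cdh5, Cldn5 and Emcn no neighbouring step passed.

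Over the 8 profiles the members moved together. Pearson's r was above 0 in all 45 pairs of members, with a median of 0.72. It was highest for Egfl7 with Eng (0.97), Cdh5 with Pecam1 (0.92) and Kdr with Egfl7 (0.92), and lowest for Cldn5 with Emcn (0.02), the pair with the fewest reads. These correlations describe 4 organs in 2 preservations, whose profiles share a library total, and carry no test. Among 19358 other genes whose log2 values averaged 3 or more, those whose pattern was most like the members' mean included Filip1l (r = 0.986 over 8 profiles), Tgm2 (0.983), Gimap6 (0.983), Dll4 (0.982), Slfn5 (0.982), Bcam (0.980), Hrct1 (0.979), Carmn (0.979) and Adgrf5 (0.979). Dll4, a Notch ligand of arterial and sprouting endothelium, had log2 levels of 6.34 and 6.48 in FFPE and frozen heart, against 5.56 and 5.50 in kidney, 4.77 and 5.17 in liver, and 4.67 and 4.52 in brain.

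**Figure D3:**
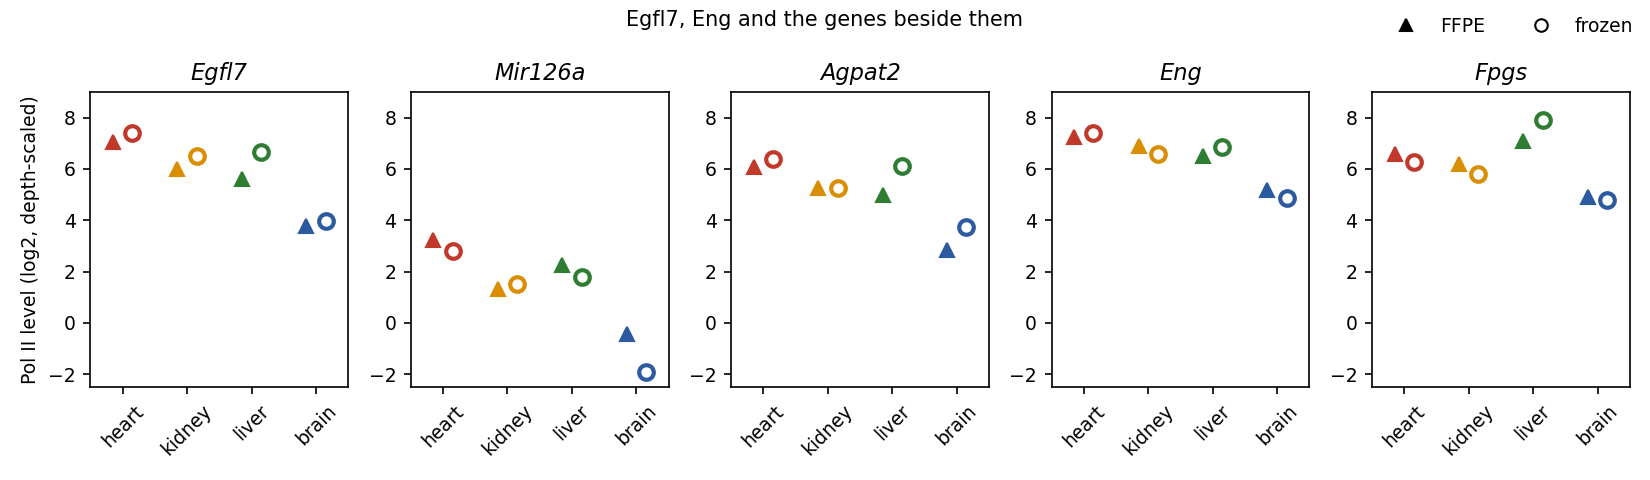
Log2 Pol II level of Egfl7 and Eng and of the genes on or beside them, by organ; triangles are FFPE and open circles frozen profiles. Agpat2 is highest in heart and lowest in brain, like Egfl7, Mir126a rests on 10 reads or fewer in every profile, and Fpgs is highest in liver, unlike Eng.

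Genes next to Egfl7 and Eng were examined because Pol II reads over neighbouring or overlapping genes may not be separable. Mir126a (chr2:26591357-26591429) lies inside Egfl7. It held 7 and 10 reads in FFPE and frozen heart, 3 and 5 in kidney, 4 and 6 in liver, and 1 and 0 in brain. Few as they are, its reads were most numerous in heart and fewest in brain, as for its host (r = 0.90 with Egfl7 over 8 profiles), and reads of the host and of the microRNA gene cannot be told apart.

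Agpat2, an acyltransferase of phospholipid and triglyceride synthesis, lies 374 bases beyond the end of Egfl7. Its log2 levels were 6.10 and 6.40 in FFPE and frozen heart, against 5.25 and 5.26 in kidney, 4.98 and 6.12 in liver, and 2.84 and 3.75 in brain. It too was called higher in heart (1.55 ± 0.30, limma adjusted p = 0.0028) and lower in brain (-2.39 ± 0.30, limma adjusted p = 2.1e-05), with r = 0.97 with Egfl7. How far reads of one gene reach into the other was not tested.

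Fpgs, which adds glutamates to folates, overlaps the end of Eng by 61 bases. Its log2 levels were 6.59 and 6.26 in FFPE and frozen heart, against 6.18 and 5.80 in kidney, 7.07 and 7.93 in liver, and 4.92 and 4.79 in brain. Fpgs was lower in brain, like Eng (-1.78 ± 0.26, limma adjusted p = 8.2e-05), but also higher in liver (1.74 ± 0.26, limma adjusted p = 8.6e-05), where Eng did not pass. Cdc45, 2184 bases from Cldn5, was not called in any organ.

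For preservation, no member passed on average over organs. In FFPE minus frozen, 4 profiles against 4 with organ as a block, 0 members were called (limma, and likewise with voom weights), against 0.153% of all genes called higher and 0.422% lower. Egfl7 alone had an unadjusted p under 0.05 (log2 fold -0.52 ± 0.22, limma adjusted p = 0.41), and its FFPE value lay below the frozen one in each of the 4 organs, as for 8.45% of all genes. The members' median was -0.02, against -0.01 for all genes.

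**Figure D4:**
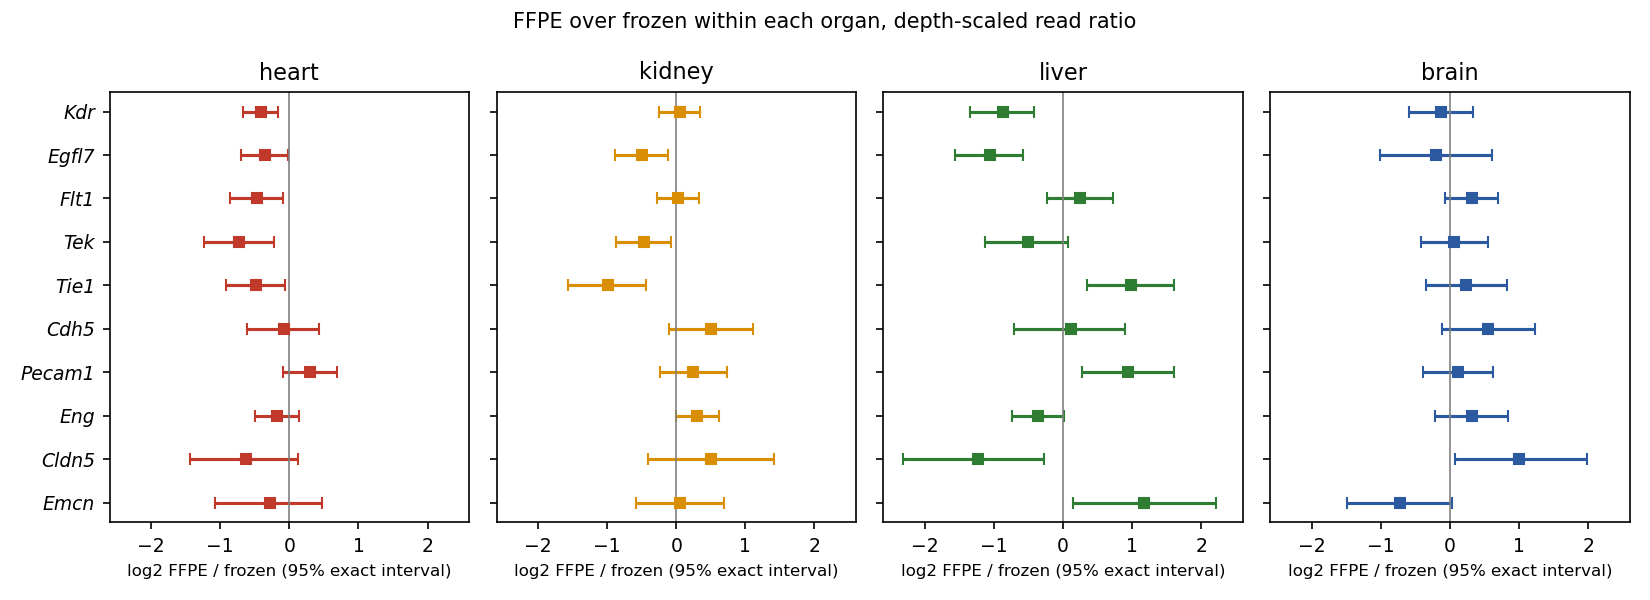
FFPE minus frozen difference of each endothelial gene (log2) within heart, kidney, liver and brain, 1 profile a side, with exact binomial 95% intervals of the read ratio. Heart has 9 of 10 genes below 0, and liver has members with intervals off 0 on both sides. Shares over all genes were not computed for these counts.

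Within an organ there is 1 profile a side and no test, and the exact binomial intervals (95%) cover counting error only. Shares over all genes were not computed for these within-organ counts, so whether a whole profile shifted alike was not tested. In heart 9 of 10 members were lower in FFPE tissue (median -0.38), and the interval lay below 0 for Kdr, Egfl7, Flt1, Tek and Tie1. In liver the members spread most: Tie1 was 0.98 higher in FFPE (44 reads in FFPE and 45 in frozen liver, at scaled totals of 932172 and 1877880), Pecam1 0.94 higher and Emcn 1.17 higher, while Cldn5 was 1.18 lower, Egfl7 1.05 lower and Kdr 0.86 lower, each with an interval off 0. In kidney the intervals of Tie1 (-0.97), Egfl7 (-0.50) and Tek (-0.47) lay below 0, and in brain only that of Cldn5 (0.97) lay off 0. Tested between organs, no member passed for an FFPE effect that differed in 1 organ from the others: limma called none, against 0% of all genes for brain, heart and kidney and 0.531% for liver, and the smallest adjusted p was 0.26 (Tie1, liver).

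Other endothelial genes were read from lists of related genes. As these lists were chosen with earlier results of these data known, their counts are not independent support for the members' result. For the list counts below, the shares of all genes called higher and lower were 3.06% and 2.18% in heart. They were 3.43% and 4.02% in brain, 4.52% and 3.39% in liver, and 0.919% and 0.456% in kidney. In FFPE minus frozen they were 0.153% and 0.422%. A single call in a list is not read as a result about that list. Of 14 further endothelial receptors and coreceptors, 8 were called higher in heart, 10 lower in brain and 1, Aplnr, lower in liver. S1pr1, the sphingosine-1-phosphate receptor that keeps the vessel wall tight, had log2 levels of 7.94 and 7.86 in FFPE and frozen heart, against 5.10 and 6.06 in kidney, 6.16 and 6.55 in liver, and 5.03 and 5.44 in brain. Its heart level stood alone above the other organs (2.18 ± 0.24), followed on the list by Ramp2 of the adrenomedullin receptor (1.80 ± 0.39) and the apelin receptor Aplnr (1.76 ± 0.31). In brain S1pr1 (-1.37 ± 0.24), Nrp1, a VEGF coreceptor (-1.34 ± 0.24), and Acvrl1, the receptor that partners Eng (-1.22 ± 0.27), were the lowest. The list's median log2 fold was 1.06 in heart and -1.01 in brain. Without FFPE heart or without frozen heart, the heart count was 1 and 2. The brain count was 3 without FFPE brain and 0 without frozen brain.

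Of 13 junction, surface and Weibel-Palade body genes, 6 were called higher in heart, 2 lower in brain and 2 lower in liver. Icam2 (2.16 ± 0.47), the anticoagulant Thbd (2.10 ± 0.32) and the sialomucin Cd34 (1.75 ± 0.34) led in heart, Clec14a (-1.11 ± 0.26) and Esam (-1.05 ± 0.27) were lower in brain, and Cd34 (-1.62 ± 0.34) and Thbd (-1.17 ± 0.32) were lower in liver. Vwf (0.29 ± 0.24) and Plvap (0.48 ± 0.27) did not pass in heart. The heart count was 2 without FFPE heart and 1 without frozen heart.

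Of 18 endothelial transcription factors, 11 were called higher in heart and 6 lower in brain. The flow-responsive factors Klf2 (2.19 ± 0.28) and Klf4 (2.06 ± 0.25) and Sox18 (1.97 ± 0.34) led in heart. Hhex (-2.26 ± 0.47), Klf2 (-1.57 ± 0.28) and Ets1 (-1.48 ± 0.21) were the lowest in brain. In liver Hhex was higher (2.94 ± 0.47), a factor that hepatocytes also express, and 3 factors were lower. The ETS factors Erg (0.72 ± 0.39) and Fli1 (0.37 ± 0.31) and the bHLH factor Tal1 (0.90 ± 0.29) did not pass in heart. The heart count was 4 without FFPE heart, 3 without frozen heart and 7 without frozen brain.

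Ligands behaved less uniformly. Of 10 ligands of the VEGF, angiopoietin and BMP9/10 systems and apelin, 1 was called higher in heart, 1 lower in brain and 1 lower in FFPE tissue, and each time it was Vegfa, which parenchymal cells make. Its log2 levels were 7.15 and 8.96 in FFPE and frozen heart, against 6.53 and 7.60 in kidney, 6.41 and 8.37 in liver, and 6.14 and 6.70 in brain. In every organ FFPE lay below frozen (-1.35 ± 0.21, limma adjusted p = 0.0026). The heart fold of 1.10 ± 0.25 lost its call without FFPE heart, frozen heart or frozen brain.

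**Figure D5:**
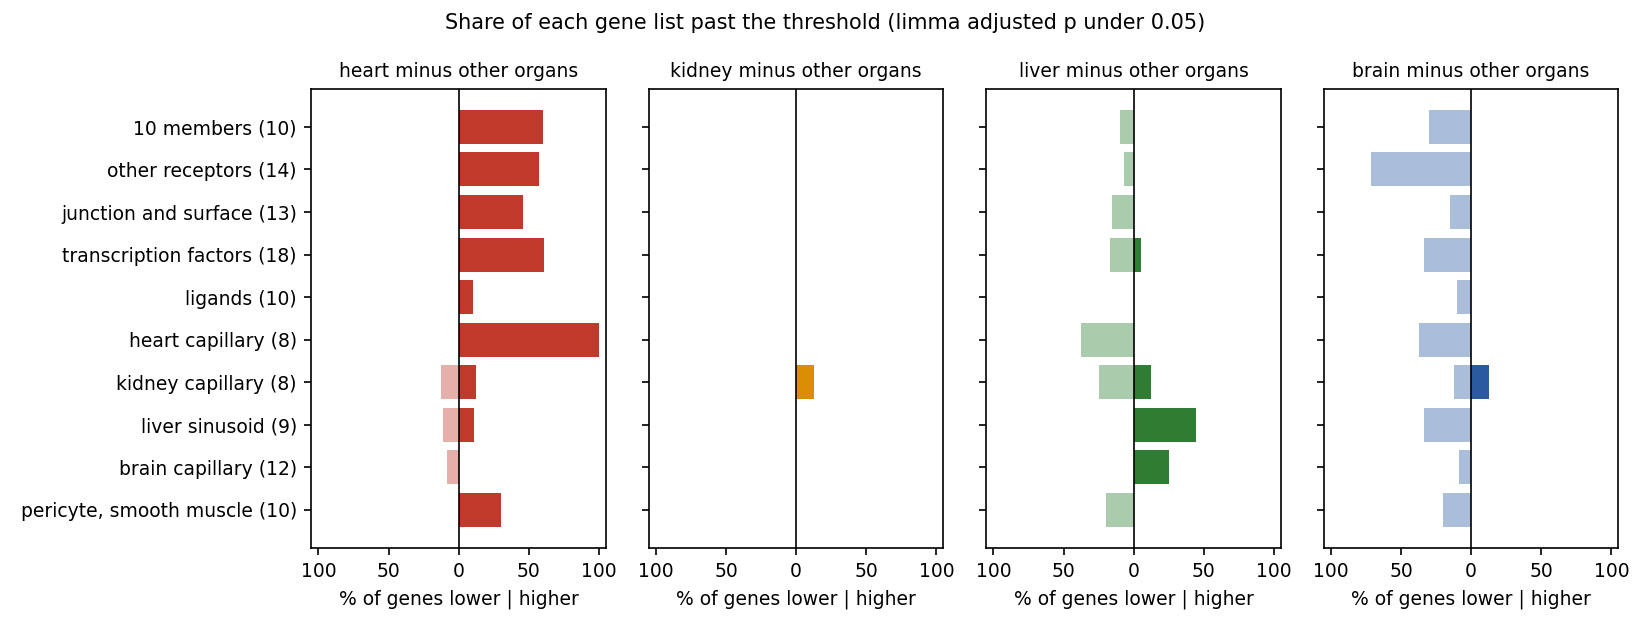
Share of each gene list, in % of its genes, called higher (dark bars, to the right) or lower (pale bars, to the left) by limma. Heart, kidney, liver and brain are each set against the other organs, and the number in brackets is the genes tested. In heart 6 of the 10 endothelial genes were called higher, against 3.06% of all genes. In brain 10 of the 14 further receptors were called lower, against 4.02% of all genes.

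Genes known to mark the capillaries of 1 organ were counted as well, from lists chosen in the same way. All 8 genes of a heart capillary list, of fatty acid transport and of transcription and other functions, were called higher in heart, among them Lpl (3.09 ± 0.32), Cd36 (2.71 ± 0.24) and Gpihbp1, the capillary anchor of lipoprotein lipase (2.62 ± 0.48). Cardiomyocytes also express Lpl and Cd36. Gpihbp1 had log2 levels of 5.80 and 5.56 in FFPE and frozen heart, against 3.46 and 2.71 in kidney, 2.56 and 3.97 in liver, and 2.84 and 2.83 in brain. The heart count was 3 without FFPE heart and 2 without frozen heart.

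Of 9 liver sinusoidal genes, 4 were called higher in liver, among them the lectin Clec4g (1.98 ± 0.44), Dnase1l3 (1.56 ± 0.32) and Oit3 (1.38 ± 0.35). By contrast, liver was not the highest organ by mean level for any of the 10 members. The liver count was 1 without frozen liver. Of 8 kidney capillary genes, Igfbp5 was called higher in kidney (1.38 ± 0.27), and without frozen kidney none was. In kidney 6 of the 8 folds were above 0, with a median of 0.19. Other genes of this list were called higher elsewhere: Plat in brain (1.20 ± 0.30), Tbx3 in heart (1.04 ± 0.27) and Ehd3 in liver (1.30 ± 0.25).

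Of 12 brain capillary (blood-brain barrier) genes, 0 were called higher in brain and 1, Foxq1, lower (-0.99 ± 0.30); 3 had an unadjusted p under 0.05. The glucose transporter Slc2a1 had log2 levels of 5.69 and 6.07 in FFPE and frozen brain, against 5.06 and 5.08 in heart, 5.76 and 5.85 in kidney, and 6.0 and 5.76 in liver. Brain overlapped kidney and liver for it (0.29 ± 0.25), and Slco1c1 (0.17 ± 0.36) and Abcb1a (-0.27 ± 0.30) did not pass either. Across the alternatives the count higher in brain ranged from 0 to 1. The lipid transporter Mfsd2a (2.04 ± 0.30), Foxq1 (1.83 ± 0.30) and Slco1a4 (1.10 ± 0.33), all on this list, were called higher in liver. Which cells of whole liver carry this Pol II, endothelial or other, was not tested.

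Markers of other cell types moved with the heart result in part. Summed levels, in reads per 1000000 of scaled total, of 10 pericyte and smooth muscle genes were 712 and 894 in FFPE and frozen heart, against 330 to 469 in the other 6 profiles. Of these genes Des (3.06 ± 0.33, also a cardiomyocyte gene), Abcc9 (1.40 ± 0.25) and Notch3 (1.08 ± 0.22) were called higher in heart. The other 7 were not called, and while 9 of the 10 folds were above 0, that of Tagln was below (-0.82 ± 0.31). Summed levels of 10 cardiomyocyte genes were 8592 and 15538 in heart, against 735 to 1137 elsewhere. Those of 10 blood and immune genes were 234 to 251 in heart, against 213 to 274 elsewhere, and 0 were called in any organ by limma, with 1 at an unadjusted p under 0.05 in brain; with voom weights 0 were called too. No marker of these 3 lists was at 0 reads in any profile. Of 9 erythroid and platelet genes, summing to 154 and 159 in FFPE and frozen heart against 131 to 185 elsewhere, 1 was called higher and 1 lower in heart and 1 higher in liver. The platelet chemokine Pf4 held 18 and 47 reads in FFPE and frozen heart, against 2 and 8 in kidney, 5 and 14 in liver, and 13 and 3 in brain. Both heart profiles of Pf4 were above the others in level (2.75 ± 0.66, limma adjusted p = 0.015). Alas2, of haem synthesis in erythroid cells, was lower in heart (-2.03 ± 0.50) and higher in liver (1.95 ± 0.50). Neither heart call held without FFPE heart or without frozen heart, and the Alas2 call in heart was also lost without FFPE brain, frozen brain or frozen kidney. Without frozen brain, FFPE liver or frozen liver its liver call was lost. The platelet genes Gp9, with 1 and 8 reads in FFPE and frozen heart against 8 to 29 elsewhere, and Itga2b, with 50 and 95 against 83 to 121, were not called in heart. Of this list, the globin genes Hbb-bs and Hba-a1 were the ones with 0 reads in some profiles and had 6 or fewer in all. The part of platelets, mural cells and heart muscle in the endothelial result was not tested.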

How the data were processed

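The submitters' processing notes name Bowtie2, featureCounts, limma and mm10, per the labels. Versions, use of strand and the counted part of a gene do not stand in the sources used here. The values deposited by the authors are log2, as limma's voom function writes them, with 0.5 reads added over a scaled total. Whole reads were recovered from 100% of them (relative tolerance 1e-06). That the table holds Pol II profiles is taken from its title, and input was not analysed here.

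Tests covered the 26758 genes that reached a log2 value of 0 in 2 or more profiles. The model was fitted by limma (version 3.58.1, R 4.3.3) with terms for organ and preservation and a trended empirical Bayes prior (3 residual degrees of freedom, prior 19.4). It gave folds with standard errors and Benjamini-Hochberg adjusted p over all genes. The steps were tested on simulated data. Python 3.11.15 was used for summaries. Of the genes, 93.0% matched RefSeq positions.

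The members and lists were chosen with earlier results of these data known. Named genes are all members, up to 3 called genes per list, direction and contrast and up to 3 not called, neighbours, and the 10 most alike in pattern. Some genes that this rule names are not reported here. The filter, scaling, added reads, weights and left-out profiles were varied. Applying these alternatives to the lists was decided after seeing the data.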

Additional observations from a re-analysis of the deposited data

How the results depend on the processing

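No call reversed. The counts of called members kept within 1.5 times of those reported under the other settings tried, with these exceptions. For liver against the other organs the count of 1 became 0 with values scaled to silent olfactory and vomeronasal receptor genes, 0 without FFPE heart and FFPE kidney, 2 with voom weights, and 3 with quantile normalization or with totals without mitochondrial genes. For heart minus kidney the count of 2 became 1 with totals without mitochondrial genes, 4 with voom weights and 0 without FFPE heart and FFPE kidney. For kidney minus brain the count of 3 became 1 without FFPE heart and FFPE kidney. For kidney minus liver the count of 0 became 2 with quantile normalization, and 1 with totals without mitochondrial genes or with voom weights. The causes were not tested.

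Leaving out 1 profile gave 2 to 8 called members in heart, 3 to 6 in brain, 0 in kidney, 0 to 3 in liver, 3 to 9 for heart minus brain, 0 to 4 for heart minus kidney, 2 to 6 for heart minus liver, 1 to 5 for kidney minus brain, 2 to 3 for liver minus brain, 0 to 2 for kidney minus liver, 0 for FFPE minus frozen and 0 for the difference between organs in the FFPE effect. Scaling to silent receptors moved the median log2 fold of all genes to 0.23 in heart, -0.22 in brain, 0.34 for heart minus brain, 0.23 for heart minus kidney, 0.15 for heart minus liver, 0.13 for kidney minus brain and 0.18 for liver minus brain. The members' medians were then 1.5 in heart, -1.02 in brain and 1.95 for heart minus brain. Under this scaling all called genes split into 985 higher and 265 lower in heart, 987 and 456 in liver, 469 and 1293 in brain, 1475 and 327 for heart minus brain, 389 and 166 for heart minus kidney, and 1450 and 563 for liver minus brain. With totals without mitochondrial genes the splits were 336 and 101 in kidney, 1057 and 1248 in liver, 300 and 427 for heart minus kidney, 569 and 525 for kidney minus liver, and 1169 and 1349 for liver minus brain. With quantile normalization that for kidney minus liver was 600 and 591. For the difference between organs in the FFPE effect, leaving out a profile meant leaving out its whole organ, FFPE and frozen. Voom weights and the pair of profiles were not run for that difference.

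No paired analysis was possible because the columns carry no replicate number; organ was the block in FFPE minus frozen. Depth limits Cldn5 and Emcn most.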
